A study of Mus musculus with 34 samples.

Results

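The regions described here are distal stretches of mouse chromatin that stood in the peak lists of 3 myeloid cell populations at once: blood monocytes, repopulating liver macrophages (RLM) and Kupffer cells, the resident macrophages of the liver. A region was taken where the deposited table of acetylation of histone H3 at lysine 27 (H3K27ac) named the Mono, KCn and KC peak lists, read here as those 3 populations, and where its annotated distance to a transcription start exceeded 3000 bp. Regions were thus chosen by peak calls in these cells together with the distance, 19282 of 84647 regions of 2000 bp (22.8%) and 34.2% of the 56344 distal regions. For that reason every H3K27ac value of the 3 populations below is a description of the regions and not a test of them.

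The study followed H3K27ac and 3 DNA-binding factors by chromatin immunoprecipitation and sequencing, with 2 libraries per group. The monocytes were Ly6C-high cells from the blood of untreated C57BL/6J mice. The RLM came from Clec4f-cre/Rosa26iDTR mice after 24 h of diphtheria toxin; Cre under the control of Clec4f, a lectin gene of resident Kupffer cells, switches on the toxin receptor in those cells. The Kupffer cells are labelled as untreated C57BL/6J, whereas the description of the series gives Clec4f-Cre/DTR mice for RLM and Kupffer cells alike. Bone marrow-derived macrophages (BMDM) of C57BL/6J mice were cultured for 4 days, without ligand or with the Notch ligand DLL4 for 24 h, and were profiled for H3K27ac. SMAD4 and RBPJ were profiled in nuclei of untreated Clec4f-cre Kupffer cells and in untreated C57BL/6J BMDM after 4 days of culture. LXR was profiled in untreated Clec4f-cre Kupffer cells and in C57BL/6J BMDM cultured for 7 days that had received the LXR agonist GW3965 for 18 h.

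Enhancers are stretches of open chromatin, often far from any gene start, at which transcription factors gather and raise transcription of genes elsewhere on the chromosome. In monocytes and macrophages, PU.1, C/EBP, RUNX and AP-1 factors open much of the common enhancer repertoire, and H3K27ac marks those in active use. Signals from the tissue then act through further factors: LXR responds to sterols, SMAD4 carries TGF-beta and BMP signals, and RBPJ is the DNA-binding partner of Notch.

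The labels do not state to which assay the peak lists belong, and the H3K27ac counts do not bear out the idea that each of the regions was strongly acetylated in each population. The regions are therefore called shared distal regions. Levels are given as CPM, the tags of a region at a fixed total of tags in all tested regions of the library, after scaling by the trimmed mean of M values (TMM). The median shared distal region held 3.47 and 3.30 CPM in the 2 monocyte libraries, 3.15 and 3.15 in RLM, and 4.41 and 4.34 in Kupffer cells. Distal regions that the monocyte list did not name had medians of 1.40 and 1.16 CPM in monocytes, and the corresponding values were 1.71 and 1.73 in RLM and 0.715 and 0.645 in Kupffer cells. Between 14.7% (Kupffer library 1) and 27.9% (RLM library 1) of the shared distal regions lay at or below these medians of unlisted regions. At the upper end, between 36.1% and 48.8% lay above the 90th percentile of the unlisted ones.

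Of the shared distal regions, 509 (2.64%) held the annotated RefSeq start of a transcript that the deposited annotation did not count as the nearest start, and in 422 of them the transcript was a long non-coding RNA. In the other classes of distal region this share ran from 1.49% to 2.34%. The 250 bases upstream of such a start were the sequences available for these regions, and 4 of the 8 with the highest H3K27ac are printed here. They were chosen to show letters that transcription factors recognise (3 windows with a match) and a window without any of the letters searched. These 3 were the only ones of the 8 with a match, so most of the strongest windows held none. Each is written 5′ to 3′ on the strand of the transcript, from RefSeq GRCm38.p6, with the matched letters in capitals.
Gm14321: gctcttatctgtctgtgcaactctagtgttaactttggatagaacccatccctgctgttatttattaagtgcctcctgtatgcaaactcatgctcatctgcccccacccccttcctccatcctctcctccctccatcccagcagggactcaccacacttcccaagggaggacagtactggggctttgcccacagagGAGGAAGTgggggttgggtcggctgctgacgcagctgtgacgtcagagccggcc
Gm51814: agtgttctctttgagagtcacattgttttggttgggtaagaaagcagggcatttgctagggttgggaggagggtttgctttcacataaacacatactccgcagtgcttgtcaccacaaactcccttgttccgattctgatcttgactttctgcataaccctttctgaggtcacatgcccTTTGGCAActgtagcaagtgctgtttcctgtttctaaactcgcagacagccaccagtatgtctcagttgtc
Gm34102: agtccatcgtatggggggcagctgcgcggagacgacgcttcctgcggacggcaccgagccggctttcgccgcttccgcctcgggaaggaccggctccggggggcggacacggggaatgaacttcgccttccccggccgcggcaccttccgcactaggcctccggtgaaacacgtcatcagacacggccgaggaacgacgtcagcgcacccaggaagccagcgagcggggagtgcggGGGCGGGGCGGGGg
Gm51701: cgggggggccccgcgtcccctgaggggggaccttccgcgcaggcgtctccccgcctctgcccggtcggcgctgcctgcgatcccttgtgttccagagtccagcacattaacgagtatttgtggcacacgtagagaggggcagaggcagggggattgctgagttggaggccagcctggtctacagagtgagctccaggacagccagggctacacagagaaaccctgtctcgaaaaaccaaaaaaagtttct

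The Gm14321 window (chr2:167777241-167777490, plus strand) holds GAGGAAGT, letters recognised by PU.1 and its ETS relatives. Its region lies between genes, 87042 bp from Cebpb, which encodes the myeloid factor C/EBP beta. Its H3K27ac level was 201 and 235 CPM in monocytes, 88.2 and 78.0 in RLM, and 78.1 and 107 in Kupffer cells, so that both monocyte libraries lay above the other 4 and the RLM and Kupffer cell libraries overlapped.

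The Gm51814 window (chr10:19062529-19062778, plus strand) holds a C/EBP match to TTGCNNAA on the opposite strand. It lies 46818 bp upstream of Tnfaip3, which encodes A20, an inhibitor of NF-kB signalling. The level there was 87.0 and 92.9 CPM in monocytes, 54.5 and 53.1 in RLM, and 81.4 and 133 in Kupffer cells; the RLM libraries were the lowest, and the other 4 overlapped.

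The Gm34102 window (chr1:183345290-183345539, plus strand), within the gene Mia3, holds 2 overlapping copies of GGGCGGGG, letters of KLF and SP factors, close to the start. The Gm51701 window (chr9:123924898-123925147, plus strand), 43834 bp from the start of the chemokine receptor gene Ccr1, holds none of the letters searched. Its region held 108 and 152 CPM in monocytes, 91.2 and 92.6 in RLM and 90.6 and 99.4 in Kupffer cells, so both monocyte libraries stood above the other 4, while RLM and Kupffer cells overlapped.

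Both strands of the 596 start windows inside shared distal regions were searched, as were those of all 32851 windows. GAGGAAGT stood in 4.70% of the former and 2.44% of all windows, RUNX letters (TGTGGTT) in 6.71% and 4.40%, C/EBP letters in 11.6% and 9.56%, and AP-1 letters (TGANTCA) in 8.22% and 6.75%. The KLF and SP letters stood in 10.1% and 16.1%. Of the 596 windows, 493 were starts of long non-coding RNAs. Those alone, against all windows of that kind, gave 5.48% against 2.83% for GAGGAAGT and 6.90% against 5.45% for RUNX letters. C/EBP letters gave 12.6% against 10.4%, and AP-1 letters 8.11% against 7.88%. For GGGCGGGG the shares were 7.10% against 5.98%, so the KLF and SP shares were in the opposite order there. A match is a run of letters and was not tested as a binding site.

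The H3K27ac tables held 7.37 to 19.5 M (mega) tags per library for the 3 populations and 20.2 to 27.2 M for BMDM, and the second Kupffer cell library was the deepest of the first table. Regions near 5 Kupffer cell marker genes summed to 41.8 to 52.8 CPM in monocytes, 161 to 168 in RLM and 961 to 1194 in Kupffer cells. For 5 monocyte markers the sums were 500 and 500, 425 and 445, and 181 and 205. Lymphocyte marker regions, found for 7 of 15 genes, summed to 245 to 334 CPM in monocytes, 149 to 152 in RLM and 143 to 193 in Kupffer cells. Hepatocyte marker regions, found for 4 of 10 genes, summed to 16.6 to 46.3 CPM, highest in Kupffer cells. Endothelial and stellate markers, found for 11 of 14 genes, summed to 336 to 353 CPM in monocytes, 257 to 259 in RLM and 282 to 306 in Kupffer cells. The part of other cells in the region values was not tested. A group of 32 shared distal regions in satellite repeats took 7.33% and 7.46% of the RLM tags. Their share was 3.25% to 3.85% of the monocyte tags and 1.46% to 1.82% of the Kupffer cell tags; they are in no list of named regions. In bulk libraries, fewer cells with an acetylated region and less acetylation per cell cannot be told apart.

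Shared distal regions lay a median of 20778.5 bp from the nearest annotated start (25th to 75th percentile 9624.5 to 46496.5 bp), and 9.07% lay more than 100 kb away. Between genes stood 49.8% and in introns 45.2%. The deposited annotation put 79.6% in no repeat, 8.55% in long terminal repeats, 3.90% in SINE and 3.89% in LINE repeats, and 2.62% in CpG islands. Overlaps among regions were common, since 50.2% shared bases with another region of the table, and merging them left 16027 separate loci. Within 250 bp of the distance limit, 234 regions just inside the rule had a median level of 4.41 CPM, and 274 of the same peak lists just outside had 5.85 CPM. Shared regions nearer to a start carried more H3K27ac, with library medians of 17.4 to 19.7 CPM over 16991 regions.

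Within 100 kb, 7408 genes had at least 1 shared distal region, which is 42.3% of the 17502 genes that the table names. Of these genes, 4087 had 1 separate locus and 25 had 10 or more. Cmip, an adaptor gene of immune cell signalling, had 18 loci, while Irf2bp2, a cofactor of IRF2, the ETS repressor gene Etv6 and the focal adhesion gene Tns3 had 13 each. Lrrc8d, which encodes a subunit of volume-regulated anion channels, and Sgms1, a sphingomyelin synthase gene, had 11 each. Clusters differed in how far their regions moved together. At Cmip, 11 of 24 regions were higher and 1 lower in Kupffer cells than in RLM, beside 22.3% and 13.9% of all tested regions. Against monocytes, 4 Cmip regions were higher and 4 lower in Kupffer cells, whereas at Sgms1 0 of 18 were higher and 16 were lower. Of all tested regions, 24.9% were higher and 17.7% lower in that comparison. At Slc45a1, with 10 loci, 10 of 13 regions were higher in Kupffer cells than in monocytes and 0 were lower, and at Ston2, an endocytic adaptor gene with 9 loci, 12 of 13 were higher and 0 lower. Irf2bp2 (4 higher and 4 lower of 21) and Lrrc8d (5 and 6 of 19) were mixed there. Regions of a cluster can overlap and share tags, so their calls are not independent. Lying near a gene is not evidence that a region controls it, and that was not tested.

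The strongest shared distal regions, among those whose nearest gene has an established symbol, included regions near chromatin and chemokine genes and were high in each library. An intron region of Kdm6b (chr11:69409454-69411454), which encodes an H3K27 demethylase, held 181 and 237 CPM in monocytes, 166 and 175 in RLM and 101 and 145 in Kupffer cells; both Kupffer cell libraries were the lowest. Near Ccr1 a region (chr9:123923260-123925260) that overlaps the one shown by its sequence above held 125 and 162, 129 and 115, and 102 and 125 CPM in the same order, with the groups overlapping.

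The 3 populations were closest to one another at a set of regions above the median level that included Nfkb1, Chd2 and Arl4d. In an intron of Nfkb1 (chr3:135607313-135609313), which encodes the p50 subunit of NF-kB, monocytes held 17.3 and 21.6 CPM, RLM 21.8 and 17.5 and Kupffer cells 18.0 and 19.5. All 3 pairs of libraries overlapped, and the log2 differences between groups ran from -0.06 to 0.01. In an intron of Chd2 (chr7:73536928-73538928), a chromatin remodeller gene, the levels were 78.9 and 86.7, 92.4 and 76.3, and 67.8 and 94.8 CPM. A region between genes 7007 bp from Arl4d (chr11:101657534-101659534), a small GTPase gene, held 35.7 and 36.8, 39.4 and 30.9, and 31.2 and 42.3 CPM, with overlap throughout.

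Evenness was not the rule. For the median tested region, the highest group mean was 2.60 times the lowest (25th to 75th percentile 1.85 to 3.91). Of 18590 shared distal regions with enough tags to be tested, 5734 (30.8%) stayed within 2-fold and 4468 (24.0%) exceeded 4-fold; 692 others had too few tags. The highest mean was that of Kupffer cells at 8747 regions (47.1%), of monocytes at 6042 (32.5%) and of RLM at 3801 (20.4%).

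In RLM, 1494 shared distal regions were called higher than in monocytes and 2658 lower, where a call needs an adjusted p under 0.05 in edgeR's quasi-likelihood test with Benjamini-Hochberg adjustment over all tested regions and at least a 2-fold difference. These are 8.04% and 14.3% of those tested, and of all 80982 tested regions 8.57% were higher and 9.14% lower. From RLM to Kupffer cells 5407 (29.1%) were higher and 1775 (9.55%) lower, against 22.3% and 13.9% of all tested regions. From monocytes to Kupffer cells 5079 (27.3%) were higher and 2984 (16.1%) lower, against 24.9% and 17.7%. Since the rule drew on these cells, nothing is read from the shares, and the 3 comparisons share libraries. The 1775 lower calls between Kupffer cells and RLM dropped to 786 without the second Kupffer cell library. The labels are silent on whether paired libraries are separate animals or cultures, so the tests weigh the spread between libraries alone.

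**Figure D1:**
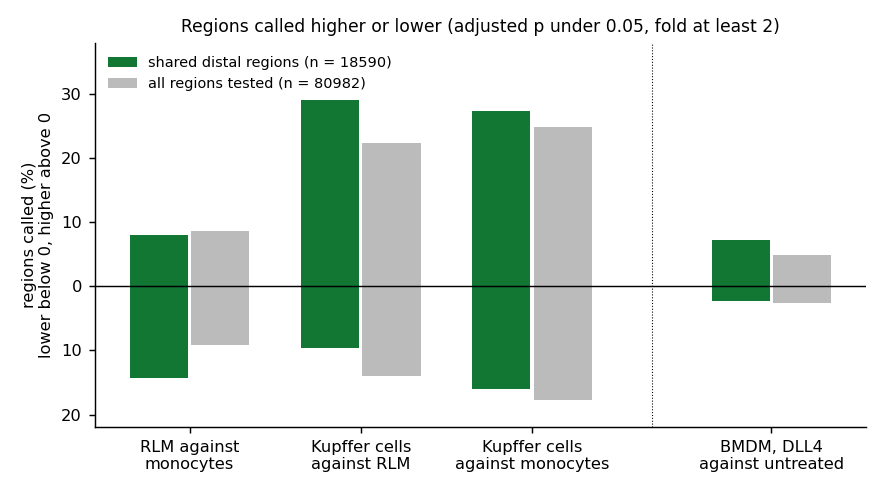
Percent of regions called higher (above 0) or lower (below 0) in each comparison, for shared distal regions (green) and for all tested regions (grey). The numbers in the key hold for the 3 comparisons left of the dotted line, and the BMDM bars on its right stand for 16980 matched and 82089 tested regions; the bar of 29.1% for Kupffer cells against RLM is the tallest of the green ones.

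Taking the 3 comparisons together, 7707 shared distal regions (41.5% of those tested) were called in none, beside 45.9% of all tested regions. The largest other set, 2951 regions, was higher in Kupffer cells than in both other populations without a call between RLM and monocytes. Another 700 rose at both steps, and 560 were higher in RLM and in Kupffer cells than in monocytes without a call between those liver populations. On the falling side, 976 were lower in both liver populations, 807 were lower in Kupffer cells than in both others, and 358 fell at both steps. A further 763 regions were lower in RLM than in monocytes and higher in Kupffer cells than in RLM with no call between the end points, and 105 showed the opposite. These sets were not counted over all tested regions, so nothing particular to the shared distal regions is read from their sizes.

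**Figure D2:**
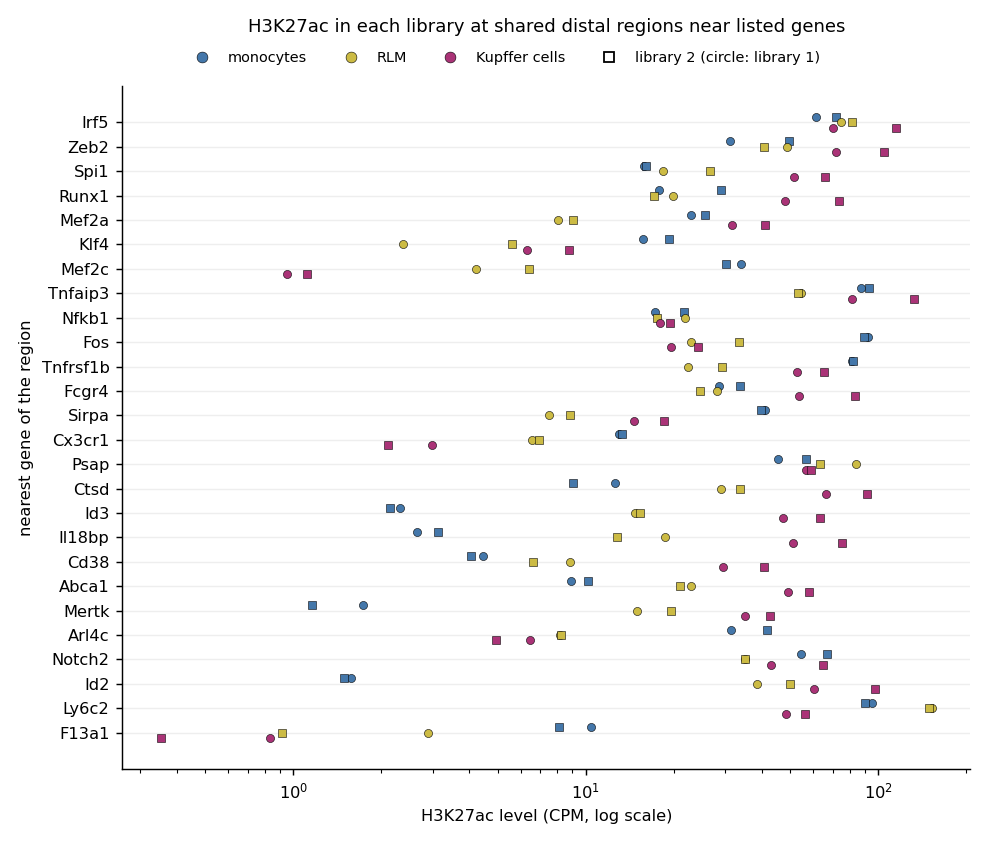
H3K27ac level (CPM, logarithmic axis) in each library at 26 shared distal regions, 1 per listed gene, with circles for library 1 and squares for library 2 and colours for the population. Regions near Irf5 and Nfkb1 have the 3 colours side by side, Mef2c and Fos have monocytes on the right, and Id3, Il18bp, Cd38 and Mertk have Kupffer cells far on the right.

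All 28 of the listed lineage factors, genes of myeloid transcription factors, had at least 1 shared distal region within 100 kb. Of the 17502 genes named for any region, 42.3% had at least 1. How many regions lie near each gene was not allowed for, here or in the lists below. The lineage factors held 171 regions in 134 loci. Of the 169 tested, 15 were higher and 31 lower in RLM than in monocytes, 64 higher and 11 lower in Kupffer cells than in RLM, and 55 higher and 25 lower in Kupffer cells than in monocytes. The median log2 differences were -0.22, 0.63 and 0.31, beside 0.07, -0.04 and -0.06 over all tested regions. Of all tested regions, 8.57% and 9.14%, 22.3% and 13.9%, and 24.9% and 17.7% were called higher and lower in the same comparisons. Whether a list differs from the rest was not tested, here or below. Upstream of Irf5 (chr6:29522611-29524611), a factor of inflammatory gene programs, the levels were 61.2 and 71.6 CPM in monocytes, 74.6 and 81.4 in RLM and 70.1 and 115 in Kupffer cells, and no call was made.

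Spi1 encodes PU.1, and a region 11982 bp upstream of it (chr2:91083696-91085696) held 15.8 and 16.0 CPM in monocytes, 18.4 and 26.6 in RLM and 51.6 and 66.0 in Kupffer cells. Both Kupffer cell libraries lay above the other 4, and the region rose from RLM to Kupffer cells by 1.38 on the log2 scale (SE 0.23). Near Irf8 (chr8:120742749-120744749), a factor of monocyte and macrophage development, a rise was called at each step, from 3.14 and 4.21 to 9.33 and 8.74 and to 35.2 and 47.5 CPM. Runx1, which encodes a core factor of blood cell formation, had a region 41334 bp upstream (chr16:92866408-92868408) with 17.9 and 29.1, 19.8 and 17.2, and 48.0 and 73.6 CPM, with both Kupffer cell libraries above the other 4.

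Other lineage factor regions were strongest in monocytes. In an intron of Mef2c (chr13:83608388-83610388), a MADS-box factor gene, H3K27ac fell from 34.1 and 30.1 CPM in monocytes to 4.2 and 6.4 in RLM and to 0.954 and 1.11 in Kupffer cells, with no overlap between populations. Klf4, a factor gene of Ly6C-high monocytes, had a region 91083 bp upstream (chr4:55622558-55624558) with 15.7 and 19.2, 2.36 and 5.59, and 6.32 and 8.74 CPM, lower in both liver populations. The Mef2a region (chr7:67462842-67464842) dipped, with 22.9 and 25.5 CPM in monocytes, 8.01 and 9.04 in RLM and 31.7 and 41.2 in Kupffer cells; the log2 differences were -1.50 (SE 0.25) and then 2.10 (SE 0.25), both called. A region in an intron of Irf2 (chr8:46777280-46779280), which encodes a regulator of interferon genes, dipped likewise, from 12.7 and 13.6 to 5.39 and 6.81 and back to 18.6 and 25.3 CPM. Without RLM library 1 the first Irf2 step was not called (log2 difference -0.96), nor was the Klf4 difference between Kupffer cells and monocytes without Kupffer library 1 (-0.97).

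Of 22 genes for AP-1, NF-kB and STAT factors and their feedback regulators, 20 had shared distal regions, 93 in all. In RLM 14 were higher and 22 lower than in monocytes, beside 8.57% and 9.14% of all tested regions. In Kupffer cells 25 were higher and 16 lower than in monocytes, beside 24.9% and 17.7% of all. AP-1 genes went in both directions. The strongest of 14 Fos regions, 5025 bp upstream (chr12:85467865-85469865), held 92.4 and 89.3 CPM in monocytes, 23.0 and 33.5 in RLM and 19.6 and 24.2 in Kupffer cells. There monocytes stood apart and the liver populations overlapped. Among all 14, however, 4 were higher and 5 lower in RLM than in monocytes, and 5 higher and 3 lower in Kupffer cells than in monocytes. The strongest regions of Fosl2 (39.5 and 34, 8.54 and 9.45, 7.39 and 6.57 CPM) and Atf3 (58.5 and 64.7, 21.9 and 18.7, 16.9 and 21.8 CPM) were also highest in monocytes. Junb was instead higher in both liver populations than in monocytes (chr8:84981338-84983338), with 20.4 and 20.1, 43.9 and 45.8, and 68.7 and 89.3 CPM. So was Nfkbia, the gene of the NF-kB inhibitor IkB alpha, with 9.26 and 9.0, 29.7 and 26.8, and 42.8 and 59.6 CPM.

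Receptor genes of phagocytes had shared distal regions in 25 of 28 cases, with 98 regions. Of these, 13 were higher and 27 lower in RLM than in monocytes, beside 8.57% and 9.14% of all tested regions. From RLM to Kupffer cells 35 were higher and 2 lower, beside 22.3% and 13.9% of all. Several of the strong ones dipped in RLM. In an intron of Tnfrsf1b (chr4:145239833-145241833), a TNF receptor gene, monocytes held 81.4 and 82.3 CPM, RLM 22.3 and 29.2 and Kupffer cells 52.9 and 65.3, without overlap. Itgb2, the gene of the integrin beta chain of leukocytes, had 45.8 and 48.2, 22.1 and 17.9, and 38.1 and 46.9 CPM, and Ptprc, which encodes CD45, had 29.4 and 39.5, 17.9 and 14.3, and 37.9 and 54.5 CPM. In both of these RLM were the lowest, and monocytes and Kupffer cells overlapped. The Itgb2 rise to Kupffer cells was not called without Kupffer library 2 (log2 difference 0.96) or RLM library 2 (0.97), nor the Ptprc fall without RLM library 2 (-0.95) or monocyte library 2 (-0.88). For Fcgr4, an activating Fc receptor gene (chr1:170997406-170999406), Kupffer cells were called higher than both others, with 28.5 and 33.6, 28.1 and 24.7, and 53.5 and 83.3 CPM; the call against monocytes was lost without Kupffer library 2 (log2 difference 0.79) or monocyte library 1 (0.98). The strongest regions of Cx3cr1, the fractalkine receptor gene (13 and 13.3, 6.57 and 6.91, 2.98 and 2.11 CPM), and Sirpa, which encodes the receptor of CD47 (41.2 and 39.6, 7.49 and 8.84, 14.7 and 18.5 CPM), were highest in monocytes, whereas the other Sirpa region was called higher in Kupffer cells than in monocytes.

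Effector genes of phagocytes had 100 regions at 21 of 24 genes. In Kupffer cells 45 were higher and 0 lower than in RLM, beside 22.3% and 13.9% of all tested regions. The median log2 difference was 0.81. Against monocytes 39 were higher and 3 lower in Kupffer cells, beside 24.9% and 17.7% of all. Between RLM and monocytes 14 were higher and 10 lower, beside 8.57% and 9.14%. Ctsd, the gene of the lysosomal protease cathepsin D, rose at each step (chr7:142397168-142399168), with 12.6 and 9.08 CPM in monocytes, 29.0 and 33.6 in RLM and 66.3 and 91.9 in Kupffer cells. Dips in RLM stood near Ctsc, another lysosomal protease gene (20.2 and 24.5, 7.62 and 11.8, 32.8 and 48.3 CPM) and the kinase gene Lyn (38 and 37.7, 16.3 and 15.1, 36.4 and 50.2 CPM). The Ctsc dip was not called without RLM library 1 (log2 difference -0.93). Psap, which encodes the precursor of the saposins, had no call (45.3 and 56.6, 84.1 and 63.5, 56.9 and 58.7 CPM).

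Of 26 genes typical of resident Kupffer cells, 12 had regions in the shared set, 30 in all, a share near the 42.3% of all genes in the table. Clec4f, Timd4, Vsig4, Spic and Nr1h3, which are among the genes that define the cell, had 0, although each had distal or promoter regions in the table. The 30 regions that were shared had a median level of 2.95 CPM in monocytes, 3.37 in RLM and 14.2 in Kupffer cells. Over all shared distal regions the monocyte medians were 3.47 and 3.30 CPM. Of the 30, 6 were higher and 2 lower in RLM than in monocytes, 23 higher and 1 lower in Kupffer cells than in RLM, and 22 higher and 0 lower in Kupffer cells than in monocytes. Of all tested regions, 8.57% and 9.14%, 22.3% and 13.9%, and 24.9% and 17.7% were called so in the same order. At Il18bp (chr7:102024399-102026399), the gene of the decoy receptor of interleukin 18, the levels were 2.64 and 3.14 CPM in monocytes, 18.7 and 12.8 in RLM and 51.0 and 75.1 in Kupffer cells. Upstream of Id3 (chr4:136139462-136141462), which encodes an inhibitor of basic helix-loop-helix factors, they were 2.31 and 2.15, 14.7 and 15.3, and 47.4 and 63.1 CPM, and both regions were called higher at each step without overlap. At the strongest of 4 regions each near Cd38, an NAD-consuming ectoenzyme gene, and Hpgd, the gene of a prostaglandin-degrading enzyme, no call separated RLM from monocytes, and Kupffer cells were called higher than RLM, with 8.8 and 6.6 against 29.6 and 40.6 CPM and 2.89 and 3.25 against 19.8 and 26.1 CPM. Elsewhere near these genes, 2 Cd38 regions were called higher and 1 Hpgd region lower in RLM than in monocytes.

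Monocyte identity genes held 36 shared distal regions at 11 of 20 genes, of which 14 were called higher and 4 lower in Kupffer cells than in monocytes, beside 24.9% and 17.7% of all tested regions. Cd44 alone supplied 13 of the 36 regions and 8 of the 14 higher calls, so the count rests largely on 1 gene. The region of F13a1, the gene of a coagulation factor subunit (chr13:37055888-37057888), fell from 10.4 and 8.09 CPM in monocytes to 2.89 and 0.914 in RLM and to 0.835 and 0.352 in Kupffer cells. The step from RLM was not called without Kupffer library 2 (log2 difference -1.11) or RLM library 1 (-0.76). Near Ly6c2, the gene of the Ly6C antigen that names these monocytes (chr15:75085357-75087357), RLM were the highest at 153 and 149 CPM, while monocytes held 95.1 and 90.1 and Kupffer cells 48.5 and 56.1, and the only call was the fall between RLM and Kupffer cells. Ifitm6, an interferon-induced membrane protein gene, dipped, with 17.2 and 15.4, 4.34 and 4.16, and 14.8 and 18.2 CPM.

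Regions near sterol-responsive LXR targets were often higher in RLM already. Of 29 tested, 18 were higher and 3 lower in RLM than in monocytes, beside 8.57% and 9.14% of all tested regions. In Kupffer cells 21 were higher and 3 lower than in monocytes, beside 24.9% and 17.7% of all. The median log2 differences were 1.34 and 2.16. Abca1 supplied 7 and Abcg1, a related exporter gene, 4 of the higher regions in each comparison, so both counts rest in good part on these genes. All 7 regions of Abca1, a cholesterol exporter gene, were called higher at each step. Its strongest (chr4:53119557-53121557) held 8.93 and 10.2 CPM in monocytes, 22.9 and 21 in RLM and 49.1 and 58.0 in Kupffer cells. In an intron of Mertk (chr2:128745008-128747008), a receptor gene for engulfing dying cells, the levels were 1.74 and 1.16, 15.0 and 19.5, and 35.2 and 42.8 CPM. Arl4c, a small GTPase gene counted among LXR targets, went the other way, from 31.5 and 41.7 CPM in monocytes to 8.15 and 8.23 in RLM and 6.44 and 4.93 in Kupffer cells.

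Genes of TGF-beta and BMP signalling held 55 shared distal regions at 14 of 17 genes. In RLM 16 were higher and 6 lower than in monocytes, beside 8.57% and 9.14% of all tested regions. In Kupffer cells 30 were higher and 6 lower than in monocytes, beside 24.9% and 17.7% of all. A region 4713 bp upstream of Id2 (chr12:25099805-25101805), a relative of Id3 induced by BMP signals, held 1.57 and 1.49 CPM in monocytes, 38.5 and 50.0 in RLM and 60.6 and 97.6 in Kupffer cells. It was called higher in RLM than in monocytes by 4.85 (SE 0.29) on the log2 scale and higher in Kupffer cells than in monocytes by 5.69 (SE 0.29), with no call between the liver populations, although their libraries did not overlap. Rgs1, a regulator of G protein signalling, had a region 70502 bp upstream (chr1:144318606-144320606) with 2.07 and 2.15, 22.3 and 20.1, and 36.4 and 50.8 CPM.

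Notch receptors and targets differed from these lists in their counts. Of 31 shared distal regions at 8 of 13 genes, 0 were higher and 10 lower in RLM than in monocytes, and in Kupffer cells 5 were higher and 13 lower than in monocytes. The shares over all tested regions were 8.57% and 9.14%, and 24.9% and 17.7%. Notch2 supplied 16 of the 31 regions, 8 of the 10 that were lower in RLM and 9 of the 13 that were lower in Kupffer cells, so the count rests largely on 1 gene. The strongest Notch2 region (chr3:98024698-98026698) had no call, with 54.4 and 66.9 CPM in monocytes, 34.9 and 35.1 in RLM and 43.0 and 64.8 in Kupffer cells. The region 89846 bp from Hes1 (chr16:30154203-30156203), a repressor gene switched on by Notch, held little H3K27ac and was highest in monocytes. It held 4.55 and 5.78 CPM in monocytes, 1.84 and 1.42 in RLM, and 0.835 and 0.704 in Kupffer cells. The other Hes1 region went the opposite way, with Kupffer cells called above both monocytes and RLM. Notch1 went up in Kupffer cells, to 18.1 and 17.9 CPM from 6.04 and 5.49 in RLM and 7.27 and 7.35 in monocytes.

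Genes used by nearly all cells served as a comparison. Their 21 tested regions, at 8 of 12 genes, included 12 higher and 1 lower in Kupffer cells than in RLM and 3 higher and 1 lower in RLM than in monocytes. The shares over all tested regions were 22.3% and 13.9%, and 8.57% and 9.14%. Their median log2 difference between Kupffer cells and RLM was 1.26, above those of lineage factors (0.63), receptors (0.70) and effectors (0.81). Among the lists only Kupffer cell identity genes had a larger one, at 1.87. The rise to Kupffer cells was thus not particular to myeloid genes. The Actb region, near the gene of beta-actin, dipped in RLM (23.7 and 21.9, 9.72 and 12.4, 24.0 and 29.0 CPM), a fall that was not called without RLM library 1 (log2 difference -0.89). Regions near markers of other cell types were few. Lymphocyte markers had 10, of which 6 were lower in RLM than in monocytes and 0 higher, among them Klrb1c, a natural killer cell receptor gene (40.8 and 56.0, 18.8 and 24.9, 18.4 and 31 CPM). Klrb1c alone supplied 7 of the 10 regions and 5 of the 6 lower calls, and the fall at this region was not called without RLM library 1 (log2 difference -0.97) or monocyte library 2 (-0.90). Endothelial and stellate markers had 16, of which 15 were tested, and 1 was higher and 9 were lower in Kupffer cells than in monocytes. The shares over all tested regions were 24.9% and 17.7%. The 9 lower calls lay near Acta2 (4), Flt1 (3) and Kdr (2) alone. Neutrophil markers had 3 regions and hepatocyte markers 0. The summed level of all lymphocyte marker regions, given above, was also lower in both RLM libraries than in both monocyte libraries, and its part in the counts was not tested.

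The BMDM libraries took no part in choosing the regions and so give a separate view of them. A BMDM region sharing at least 1000 bp was found for 18909 shared distal regions (98.1%), whereas 60.7% to 92.1% of the other classes of distal region had one. The median matched region held 4.47 and 4.56 CPM in untreated BMDM, and the medians of the other distal classes were 1.05 to 3.04 CPM.

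Notch stimulation moved a small part of them, mostly upward. Of 16980 separate matched regions tested, 1239 (7.30%) were called higher with DLL4 and 398 (2.34%) lower by edgeR's quasi-likelihood test with Benjamini-Hochberg adjustment and a 2-fold minimum. Over all 82089 tested BMDM regions 4.89% were called higher and 2.64% lower, and over distal ones 6.13% and 3.44%. With a 1.5-fold minimum, 2301 (13.6%) were higher and 970 (5.71%) lower, against 8.46% and 5.46% of all. The median log2 difference of the matched regions was 0.05, beside -0.02 over all; scaled by total tags these were -0.00527 and -0.08. The difference between these shares was not tested.

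Several of the regions called with DLL4 lie near receptor and Kupffer cell genes. In untreated BMDM the Il18bp region held 15.2 and 13 CPM and with DLL4 51.4 and 55.9, a rise of 1.94 (SE 0.10; adjusted p = 7.3e-17 in edgeR's quasi-likelihood test with Benjamini-Hochberg adjustment). The region 91174 bp from Tgfbr2, a TGF-beta receptor gene (chr9:116083189-116085189), rose from 5.88 and 6.41 to 26.2 and 26.4 CPM, by 2.09 (SE 0.14), and that of Tgfbr1, its partner receptor, from 53.1 and 50.6 to 110 and 107. In each case both libraries with DLL4 lay above both without. Ptprc rose from 25.4 and 26.2 to 65.2 and 72.3 CPM, Lyn from 22.6 and 25.2 to 45.6 and 52.2, and Pecam1, an adhesion molecule gene of endothelium and myeloid cells, from 7.00 and 10.2 to 43.4 and 45.4. The Lyn rise was under 2-fold without DLL4 library 2 (log2 difference 0.93) or untreated library 1 (0.97). Cd38 rose from 2.33 and 2.24 to 9.39 and 13 CPM and Hpgd from 7.97 and 7.56 to 19.8 and 17.5. By list, 9 of 26 matched regions of Kupffer cell identity genes were higher and 0 lower, 14 of 96 of receptor genes were higher and 0 lower, and 18 of 165 of lineage factors were higher and 6 lower, beside 7.30% higher and 2.34% lower over all matched regions. No difference between a list and the rest was tested.

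The canonical Notch list had 0 of 31 regions called higher and 2 lower with DLL4 (edgeR), too few regions to set apart from the same shares, and Hes1 near 1.56 and 1.63 CPM without and 4.00 and 2.43 with the ligand (no call). Housekeeping regions had 0 calls in either direction among 21 (edgeR). Among the largest called rises were regions near Abcg3, a transporter gene, from 1.02 and 0.507 to 14.6 and 15.8 CPM, Lclat1, a cardiolipin remodelling gene, from 1.65 and 0.688 to 15.9 and 18.7, Tspan13, a tetraspanin gene, from 1.99 and 1.41 to 22.9 and 24.0, and the ribosomal protein gene Rpl21, from 2.92 and 1.70 to 27.8 and 28.8. Falls at well-filled regions included Mef2a, from 52.9 and 49.1 to 23.3 and 20.5 CPM (-1.22, SE 0.09), and Ifitm6, from 29.5 and 32 to 12.5 and 12.3 (-1.31, SE 0.12). Both are among the regions that dipped in RLM, but so are those of Ptprc and Lyn, which rose with DLL4, and no link was tested. The largest falls by fold lay in sparse regions such as that of Mgat5b, a glycosyltransferase gene, with 0.826 and 2.21 CPM without and 0.139 and 0.0951 with DLL4. The Sorl1 region, which fell steeply from monocytes to Kupffer cells (39.0 and 55.6, 14.7 and 17.7, 0.954 and 0.997 CPM), rose with DLL4 in BMDM from 7.05 and 10.0 to 42.0 and 42.0 CPM.

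Among regions with an RBPJ peak before stimulation, the share called higher was lowest where the peak signal was strongest. With the matched regions that had an RBPJ peak in both untreated BMDM libraries split into 4 equal groups by peak signal (the authors' normalized tag counts), 7.84%, 8.43%, 7.55% and 6.20% were called higher with DLL4, from the weakest signal to the strongest. Where a peak was found in 1 or no library, 106 of 1887 (5.62%) were higher, fewer than in any of the 4 groups; these differences were not tested. The median H3K27ac level (mean of the 4 BMDM libraries) over the same 4 groups was 1.85, 4.99, 10.3 and 21.9 CPM.

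Binding of the 3 factors was read from peak lists that the rule did not use, counting a peak where its centre lay inside the region. In both libraries of the group, LXR peaks stood in 50.2% of the shared distal regions in Kupffer cells and 49.6% in BMDM, SMAD4 peaks in 42.7% and 40.7%, and RBPJ peaks in 15.2% and 84.7%. Over all distal regions the shares were 33.5% and 30.8%, 25.4% and 24.0%, and 7.93% and 64.4%. Single libraries differed, with LXR at 66.8% and 56.5% and SMAD4 at 61.9% and 47.0% in Kupffer cells. Per the file headers the input of the second LXR library of Kupffer cells was named for a NASH diet and its ChIP for a control diet, and 1 input served SMAD4 library 2 and RBPJ library 1 of Kupffer nuclei. The RBPJ lists held 11277 and 13394 peaks in Kupffer nuclei and 78976 and 80480 in BMDM, so the gap between the cells moves with list length, and its cause was not tested.

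**Figure D3:**
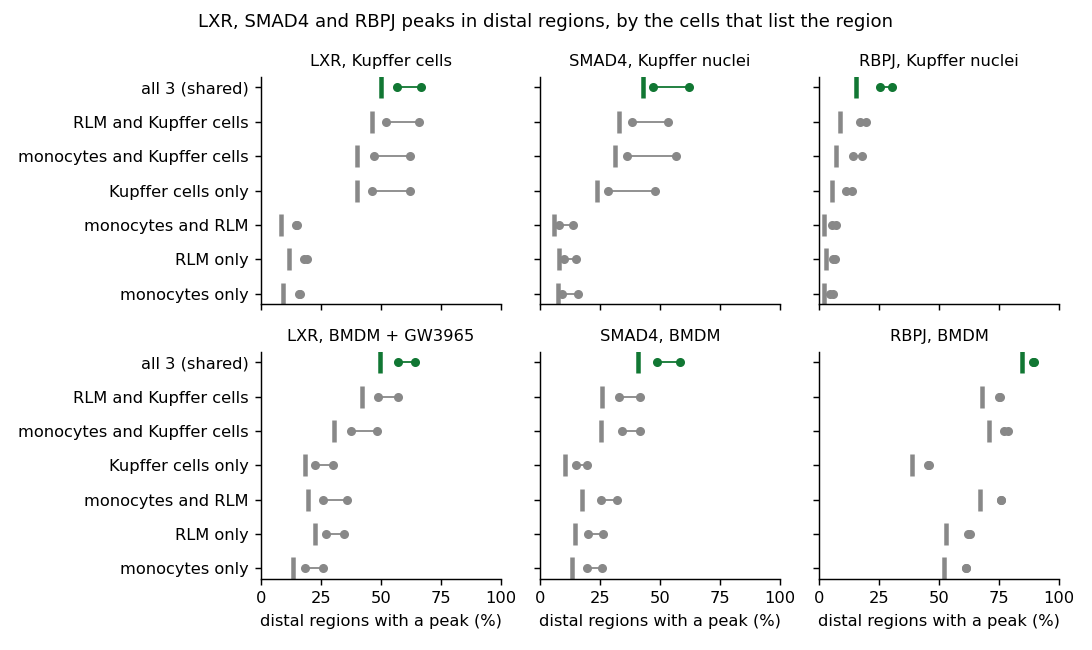
Percent of distal regions with an LXR, SMAD4 or RBPJ peak, by the populations whose peak lists name the region; points are the 2 libraries, and the upright bar is the share with a peak in both. The shared regions (green) have the right-most upright bars in all 6 panels, for instance 50.2% for LXR in Kupffer cells and 84.7% for RBPJ in BMDM; the difference from the other classes was not tested.

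The factors met at many of the same regions. In Kupffer cells 2194 shared distal regions (11.4%) had all 3 in both libraries, 4563 (23.7%) had LXR and SMAD4 without RBPJ, and 7838 (40.6%) had none. In BMDM 5998 (31.1%) had all 3 and 2506 (13%) none. LXR peaks were found in both cells at 7032 regions (36.5%), in Kupffer cells and in no BMDM library at 1009, and in BMDM and no Kupffer cell library at 763. For SMAD4 the counts were 5334, 1067 and 864, and for RBPJ 2808, 33 and 9092.

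H3K27ac followed the number of factors in each of the cells measured. With 0, 1, 2 and 3 factors bound in Kupffer cells, the median level in the first Kupffer cell library was 1.19, 4.89, 11.7 and 16.4 CPM, and in the second 1.06, 4.81, 13.1 and 19.6. The monocyte medians went from 1.82 to 8.35 CPM in library 1, those of RLM from 1.84 to 7.62 and those of untreated BMDM from 1.41 to 17.0. Regions with LXR in Kupffer cells and in no BMDM library had medians of 5.84 and 5.98 CPM in Kupffer cells and 2.38 and 2.28 in BMDM, and those with LXR in BMDM alone had 1.31 and 1.29 and 4.47 and 4.52. Kupffer cells were called above RLM at 10.4% of the tested regions without a factor, at 47.4% of those with LXR and SMAD4 and at 51.1% of those with all 3, beside 22.3% of all tested regions. Calls below RLM ran the other way, at 17.8%, 2.33% and 1.5%, beside 13.9% of all. Over all shared distal regions the shares above and below were 29.1% and 9.55%. Grouped by peaks in BMDM, the order was the same, with 18.0% above and 15.7% below without a factor and 39.9% and 6.36% with all 3. Regions without a factor also held the least H3K27ac, and these differences were not tested.

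**Figure D4:**
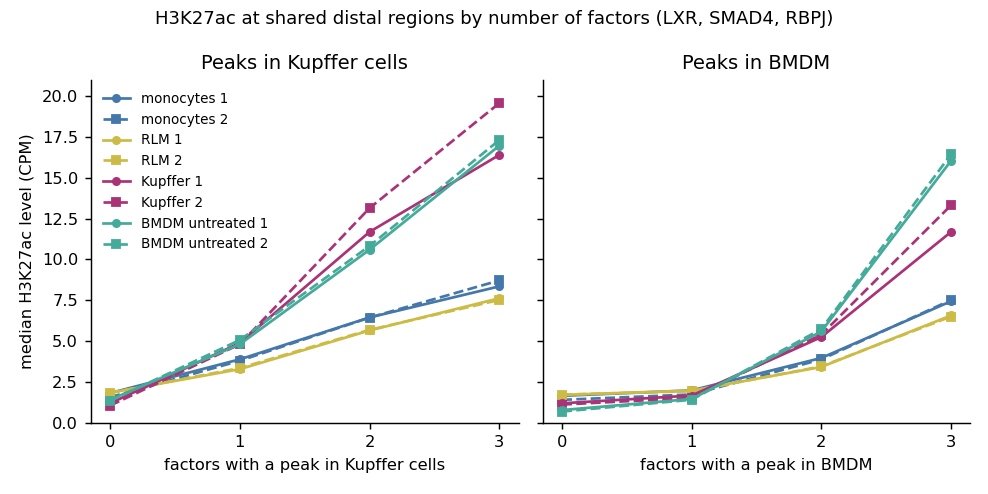
Median H3K27ac level (CPM) of shared distal regions with 0 to 3 of the factors LXR, SMAD4 and RBPJ bound in both libraries, in Kupffer cells (left) and in BMDM (right), 1 line per H3K27ac library. Each line climbs from left to right, in the left panel from 1.19 to 16.4 CPM for Kupffer library 1 and from 1.82 to 8.35 CPM for monocyte library 1.

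Among the regions where all 3 factors gave high signals in Kupffer cells were several near genes of phagocytosis and signalling. The region 7162 bp upstream of Ptpn1 (chr2:167924165-167926165), a tyrosine phosphatase gene, had normalized LXR tag counts of 339 and 165, SMAD4 counts of 254 and 222 and RBPJ counts of 14.2 and 13.1. Its H3K27ac dipped in RLM, at 44.1 and 44.7, 21.9 and 18.1, and 43.3 and 67.0 CPM. In an intron of Axl (chr7:25775894-25777894), a receptor kinase gene related to Mertk, the signals were 253 and 105, 385 and 332, and 31.8 and 29.7, with H3K27ac of 3.22 and 2.81, 2.89 and 2.03, and 7.63 and 6.10 CPM, and a rise with DLL4 in BMDM from 5.30 and 5.61 to 12.6 and 12.5. An intron region of Lrp1 (chr10:127603709-127605709), a scavenger receptor gene, had H3K27ac of 11.2 and 8.09, 39.5 and 36, and 59.5 and 79.2 CPM, and one in Vasp (chr7:19265108-19267108), an actin regulator gene, 4.79 and 2.89, 8.41 and 10.7, and 32.4 and 40.1 CPM. High signals of the 3 factors came with different H3K27ac orders among the populations.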

How the data were processed

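Both H3K27ac tables were deposited as raw tag counts per annotated 2000 bp region, which the authors made with HOMER, and no normalization had been applied. Each factor library came as a HOMER peak list; per the file headers it gives a normalized tag count (a signal) and a findPeaks score per peak, called against an input. Bowtie2, HOMER and mm10 are named in the submitters' processing notes, with versions not given in the sources used here. Input libraries were not analysed here.

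Counts were tested with edgeR 4.0.16 (robust quasi-likelihood, TMM, filterByExpr) in R 4.3.3, 1 fit per table, with Benjamini-Hochberg adjustment over all tested regions; DESeq2 1.42.0, other scalings, filters and overlaps and the omission of single libraries were alternatives. On simulated counts the fit recovered 26% of 2-fold and 96% of 4-fold changes for RLM against monocytes (78338 regions), and 30% and 98% for DLL4 (79855 regions). Recovery there meant an adjusted p under 0.05 in the right direction, without a fold minimum, at regions picked for a higher tag count. Overlapping regions can count a tag more than once. The annotation was joined to GRCm38.p6 after 88.5% of 14025 promoter regions were found within 2 kb of the gene they name.

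Members, gene lists and rules were chosen with earlier results of these data known. Named regions are the strongest region of each listed gene, those of highest or most even level, those with the largest folds per comparison among fully separated calls, genes with the most loci, and regions with the highest signal of all 3 factors. Satellite regions and predicted symbols were left out, and the Gm windows were named for their sequence alone. Library numbers did not pair the samples: correlations of same-numbered deviations were -0.018 to 0.038. Values at 2 regions that the rule for named genes takes are not reported here.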

Additional observations from a re-analysis of the deposited data

How the results depend on the processing

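No call on a shared distal region turned to the opposite direction under any alternative run. Restricting the counts to regions that overlap no other, fewer by construction, gave 476 higher and 956 lower for RLM against monocytes, 1758 and 1005 for Kupffer cells against RLM, and 1737 and 1535 for Kupffer cells against monocytes. Leaving out 1 library at a time gave 1294 to 1507 higher and 2343 to 2902 lower, 4150 to 5578 and 786 to 1908, and 4189 to 5196 and 2108 to 3031 in the same order, and for DLL4 1171 to 1301 and 311 to 414. A 1.5-fold minimum gave 2301 and 970 for DLL4. With a peak in either library, the shares were 66.1% for SMAD4 and 40.5% for RBPJ in Kupffer nuclei and 66.4% for SMAD4 in BMDM; the stronger part of the peaks gave 25.8% for SMAD4 in Kupffer nuclei.

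The fit with the library number as a replicate block gave 1455 and 2613, 5385 and 1667, 5068 and 2911, and 1259 and 416 calls in the 4 comparisons. With total tags as the scale, all tested regions had a median log2 difference of -0.18 in place of -0.04 for Kupffer cells against RLM, and of -0.17 in place of -0.06 against monocytes; list medians near 0 changed sign for effector and housekeeping genes between RLM and monocytes. On the simulated counts, most 2-fold changes missed an adjusted p under 0.05 even without a fold minimum.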
